A study of Mus musculus with 110 samples.

Results

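The acute phase and IL-6 response genes described here are 33 of the 56884 gene rows in the count tables. They were chosen by symbol, from knowledge of the pathway: 4 serum amyloid A genes, 3 orosomucoids, Lcn2 and Lrg1, 3 carriers of haem, iron or copper (Hp, Hpx and Cp), 2 inter-alpha-trypsin inhibitor heavy chains, 3 fibrinogen chains, 2 pentraxins, 3 serpins of the A3 family, 4 receptors or receptor antagonists, 5 genes of signalling, transcription and its targets, and 2 metallothioneins. All 33 symbols were matched to a row. They were measured by RNA sequencing in liver, interscapular brown fat (iBAT), inguinal white fat (iWAT) and epididymal white fat (eWAT) of 28 single-housed male C57BL/6N mice, which were 16 weeks old at the end. Each mouse received 1 of 4 treatments. Ctrl_RT mice ate a control diet with 0.86% methionine and were kept at 22 °C. Ctrl_CE mice ate the same diet and spent the last 24 h at 4 °C. MetR_RT mice ate a methionine-restricted diet with 0.12% methionine at 22 °C, and MetR_CE mice combined that diet with 24 h at 4 °C. Both diets lacked cysteine, so the controls were deprived of this amino acid too, and both were fed for 7 days, before the day of cold where there was one. Of 110 libraries, 105 were used. The 5 left out were Ctrl_CE replicate 5 of iBAT and Ctrl_RT replicates 2, 4 and 5 and MetR_RT replicate 7 of eWAT. They were inferred by matching the mean counts released with the study. There were 7 libraries per group in liver, 6 or 7 in iBAT and iWAT, and 4 (Ctrl_RT), 7, 6 and 7 in eWAT. Replicates were separate mice, and the same mice gave all 4 tissues. In iBAT, replicate 1 of MetR_RT, Ctrl_CE and MetR_CE carried a treatment tag that names another group than the title, and was placed by its title.

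The acute phase response is the change in plasma proteins that follows infection, injury or stress. On hepatocytes, IL-6 binds Il6ra and the subunit Il6st (gp130), which the cytokines of its family share, and activates the transcription factor Stat3. IL-1 acts through Il1r1 and NF-kB, and glucocorticoids and C/EBP factors strengthen the same promoters. Hepatocytes then secrete serum amyloid A, orosomucoid, haptoglobin, hemopexin and fibrinogen, while Socs3 and the antagonist Il1rn limit the signal. Metallothioneins bind zinc and copper and are induced by metals, glucocorticoids and IL-6. Adipocytes, macrophages and neutrophils express several of these genes as well, among them Saa3, Lcn2, Hp, Orm1, Serpina3n and Steap4.

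The promoters of 7 members on which the results turn are printed first, because the serum amyloid A genes, a fibrinogen chain, Steap4 and the metallothioneins moved in different tissues. Each is the stretch of up to 250 bases that ends just before the RefSeq start of the gene, taken from the mouse assembly GRCm38.p6, printed 5′ to 3′ in the direction of transcription and shortened where the window enters an annotated transcript of the gene. Capitals in the first 5 mark matches, on either strand, to a STAT motif (TTCNNNGAA), a C/EBP motif (TTGCNNAA) or an NF-kB motif (GGG and TTTCC with any 2 bases between them). Capitals in Mt1 and Mt2 mark the core of the metal response element (TGCNCNC), on either strand.
Saa1 (chr7:46742981-46743230, minus strand): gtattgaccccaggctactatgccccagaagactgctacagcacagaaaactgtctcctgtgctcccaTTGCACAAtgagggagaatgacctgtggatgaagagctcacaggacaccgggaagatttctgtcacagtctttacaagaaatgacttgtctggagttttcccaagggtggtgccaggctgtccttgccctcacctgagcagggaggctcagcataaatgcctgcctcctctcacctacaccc
Saa2 (chr7:46751583-46751789, plus strand): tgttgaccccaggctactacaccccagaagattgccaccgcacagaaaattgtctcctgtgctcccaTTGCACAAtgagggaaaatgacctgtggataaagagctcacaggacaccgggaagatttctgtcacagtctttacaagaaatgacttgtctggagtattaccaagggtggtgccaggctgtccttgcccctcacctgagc
Saa3 (chr7:46715701-46715926, minus strand): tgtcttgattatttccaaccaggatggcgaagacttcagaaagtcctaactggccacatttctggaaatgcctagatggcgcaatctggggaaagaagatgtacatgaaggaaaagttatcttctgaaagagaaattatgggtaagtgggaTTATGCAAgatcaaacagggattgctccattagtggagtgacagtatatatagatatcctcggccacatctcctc
Fgb (chr3:83049864-83050113, minus strand): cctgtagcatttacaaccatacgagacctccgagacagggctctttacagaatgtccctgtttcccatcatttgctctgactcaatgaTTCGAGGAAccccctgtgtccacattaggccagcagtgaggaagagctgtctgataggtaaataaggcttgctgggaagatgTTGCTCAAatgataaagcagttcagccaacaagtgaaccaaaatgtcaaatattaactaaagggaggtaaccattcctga
Steap4 (chr5:7960222-7960456, plus strand): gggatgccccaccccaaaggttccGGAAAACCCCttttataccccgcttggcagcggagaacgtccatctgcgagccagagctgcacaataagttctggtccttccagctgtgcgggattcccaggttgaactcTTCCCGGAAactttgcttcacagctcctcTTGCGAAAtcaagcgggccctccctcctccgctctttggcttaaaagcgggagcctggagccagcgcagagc
Mt1 (chr8:94178839-94179081, plus strand): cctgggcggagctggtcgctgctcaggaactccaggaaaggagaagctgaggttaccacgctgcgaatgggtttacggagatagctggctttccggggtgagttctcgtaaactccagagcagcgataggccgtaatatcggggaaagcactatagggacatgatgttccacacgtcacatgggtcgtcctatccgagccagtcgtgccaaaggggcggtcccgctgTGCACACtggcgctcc
Mt2 (chr8:94172368-94172617, plus strand): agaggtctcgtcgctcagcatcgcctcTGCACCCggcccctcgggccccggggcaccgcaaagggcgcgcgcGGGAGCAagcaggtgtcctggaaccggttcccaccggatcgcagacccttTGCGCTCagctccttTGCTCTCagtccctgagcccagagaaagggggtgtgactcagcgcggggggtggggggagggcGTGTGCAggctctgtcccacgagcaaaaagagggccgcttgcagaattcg
RefSeq windows were found for 28 of the 33 members. A C/EBP match lay in at least 1 window of 14 of the 28 (50%), against 9.57% of all 32536 windows. The shares of members count genes, which had 32 windows together, whereas the background counts single windows. A STAT match lay in 6 (21.4%, against 7.04%), which were Apcs, Fga, Fgb, Itih4, Socs3 and Steap4, and an NF-kB match in 3 (10.7%, against 1.4%), which were Il1rn, Serpina3n and Steap4. The metal response core lay in 11 (39.3%, against 44.7%), and Mt2 held 5 copies where 4.68% of all windows held 3 or more. The windows of Saa1 and Saa2 were 94.8% identical, those of Orm2 and Orm3 85.9%, and those of Saa1 and Saa3 50.2%. All of these genes are among those with a C/EBP match, so that near copies add to that count. The transcripts are alike too: 31.5% of the 50-base stretches of Saa1 and 30% of those of Saa2 occur in another gene, as do 20.4% for Orm1, 22.7% for Orm2, 19.1% for Serpina3m and 14% for Serpina3k, so that the split of counts between these neighbours is uncertain. A match to letters is a description and does not show binding.

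The libraries held 6987895 to 33444374 counts, with the lowest in liver. Before the scaling of totals described below, 1 CPM (1 count in every 1000000 counts of a library) was therefore at least about 7 reads. Marker genes bore out the tissues: 14 hepatocyte markers summed to at least 81309 CPM in every liver library, and 6 adipocyte markers to at least 10114 CPM in every fat library. Markers of other tissues were high in single fat libraries. Skeletal muscle markers summed to 19764 CPM in iWAT of MetR_RT replicate 6 (group median 694) and 5112 in Ctrl_RT replicate 2 (144). Epididymis epithelium markers summed to 1467 CPM in eWAT of MetR_RT replicate 2 (0.745) and 131 in MetR_CE replicate 1 (0.351). Their part in the members' values was not tested. 1 mouse stood apart. In the liver of Ctrl_CE replicate 4, 32 of the 33 members were the highest of the 7 Ctrl_CE libraries, and the median ratio to the other 6 was 4.64. The same mouse was highest of its group in 22 of 30 members with counts in iBAT, 17 of 31 in iWAT and 14 of 33 in eWAT. Its summed neutrophil markers were 51.4, 30.4, 48.6 and 53.2 CPM in liver, iBAT, iWAT and eWAT, where the Ctrl_CE medians were 1.84, 0.478, 1.48 and 3.31. Of 15 glucocorticoid receptor targets it was highest in 11, 8, 12 and 11. The counts of members and of list genes called in Ctrl_CE are therefore given with and without it. Ctrl_CE replicate 1 lay at the other end in liver, where it was the lowest of 7 in 20 members.

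In liver, methionine restriction lowered most of the acute phase genes at room temperature. Of the 33 members, 25 fell and 0 rose between Ctrl_RT and MetR_RT, where 4.02% of all genes tested fell and 2.88% rose. A gene is called risen or fallen here when the quasi-likelihood test of edgeR gave a Benjamini-Hochberg adjusted p under 0.05 over all genes tested and the gene changed at least 1.5-fold. The members' median log2 fold change was -1.32, and that of all genes 0.00. With cold added, 25 fell and 0 rose between Ctrl_RT and MetR_CE (all genes 7.22% and 6.25%), with a median of -1.92 against -0.04. In such bulk samples, fewer cells of a type and less RNA per cell cannot be told apart.

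Serum amyloid A is the acute phase apolipoprotein of high-density lipoprotein, and its 4 genes fell. Saa1 had 1759, 2000.1 and 8424 CPM in Ctrl_RT, 10.2, 1123 and 10995 in Ctrl_CE, while MetR_RT had 9.08, 14.1 and 385 and MetR_CE 1.54, 7.38 and 13.01 (lowest, median and highest of 7 libraries). All 14 libraries on the restricted diet lay below every Ctrl_RT library, and MetR_RT replicate 5 was the one high value among them. The log2 fold change was -5.78 ± 1.03, adjusted p = 0.000129 in MetR_RT and -9.06 ± 1.199, adjusted p = 6.72e-07 in MetR_CE. Saa2, its near-identical neighbour, had 1180.5, 1716 and 9274 CPM in Ctrl_RT, 5.39, 1237 and 13071 in Ctrl_CE, while MetR_RT had 2.74, 5.22 and 143 and MetR_CE 1.16, 3.10 and 7.21. It fell by 7.15 ± 1.13 and 10.17 ± 1.30 on the log2 scale. Saa3, the form that macrophages and adipocytes also make, had 14.4, 20.4 and 200.1 CPM in Ctrl_RT, 0.790, 4.81 and 90.9 in Ctrl_CE, while MetR_RT had 0.812, 2.04 and 6.35 and MetR_CE 0.476, 0.758 and 1.87, and its groups on the 2 diets at room temperature did not overlap. Saa3 changed by -4.45 ± 0.82 and -5.86 ± 0.94. The constitutive form Saa4 had 363, 449.6 and 1021 CPM in Ctrl_RT, 129, 168 and 609 in Ctrl_CE, while MetR_RT had 70.8, 125 and 175 and MetR_CE 73.3, 94.9 and 115. Its change was smaller, at -2.23 ± 0.29 and -2.71 ± 0.29, and it passed the test in cold alone too (-1.43 ± 0.28).

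The orosomucoids, lipocalin-type carriers of the acute phase, fell together, with all 14 restricted libraries below every Ctrl_RT library. Orm1 had 917, 1483 and 2819 CPM in Ctrl_RT, 215, 648 and 2689 in Ctrl_CE, while MetR_RT had 76.3, 128 and 277.8 and MetR_CE 86.6, 126 and 161. Orm2 had 100.4, 200.5 and 1412 CPM in Ctrl_RT, 1.30, 69.6 and 1410.2 in Ctrl_CE, while MetR_RT had 1.21, 3.30 and 7.24 and MetR_CE 1.56, 1.77 and 2.48. Their changes in MetR_RT were -3.29 ± 0.40, adjusted p = 4.96e-07 and -7.05 ± 0.95, adjusted p = 2.96e-06. Orm3, with 5.38 to 38.4 CPM in Ctrl_RT and 0 to 1.72 in MetR_RT, changed by -4.37 ± 0.83. Lcn2, a lipocalin that binds bacterial siderophores, had 180.1, 513 and 1285 CPM in Ctrl_RT, 1.39, 113 and 1296 in Ctrl_CE, while MetR_RT had 3.02, 17.8 and 99.2 and MetR_CE 2.85, 6.31 and 8.26. Every restricted library was below the lowest Ctrl_RT value, and Lcn2 changed by -4.51 ± 0.86, adjusted p = 0.000293 in MetR_RT and -6.80 ± 0.98 in MetR_CE. Lrg1, a secreted leucine-rich glycoprotein, had 719, 1169 and 1683 CPM in Ctrl_RT, 129, 296.9 and 1380.4 in Ctrl_CE, while MetR_RT had 148, 170.0 and 325 and MetR_CE 82.04, 123 and 144 and changed by -2.44 ± 0.35 and -3.23 ± 0.36.

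**Figure D1:**
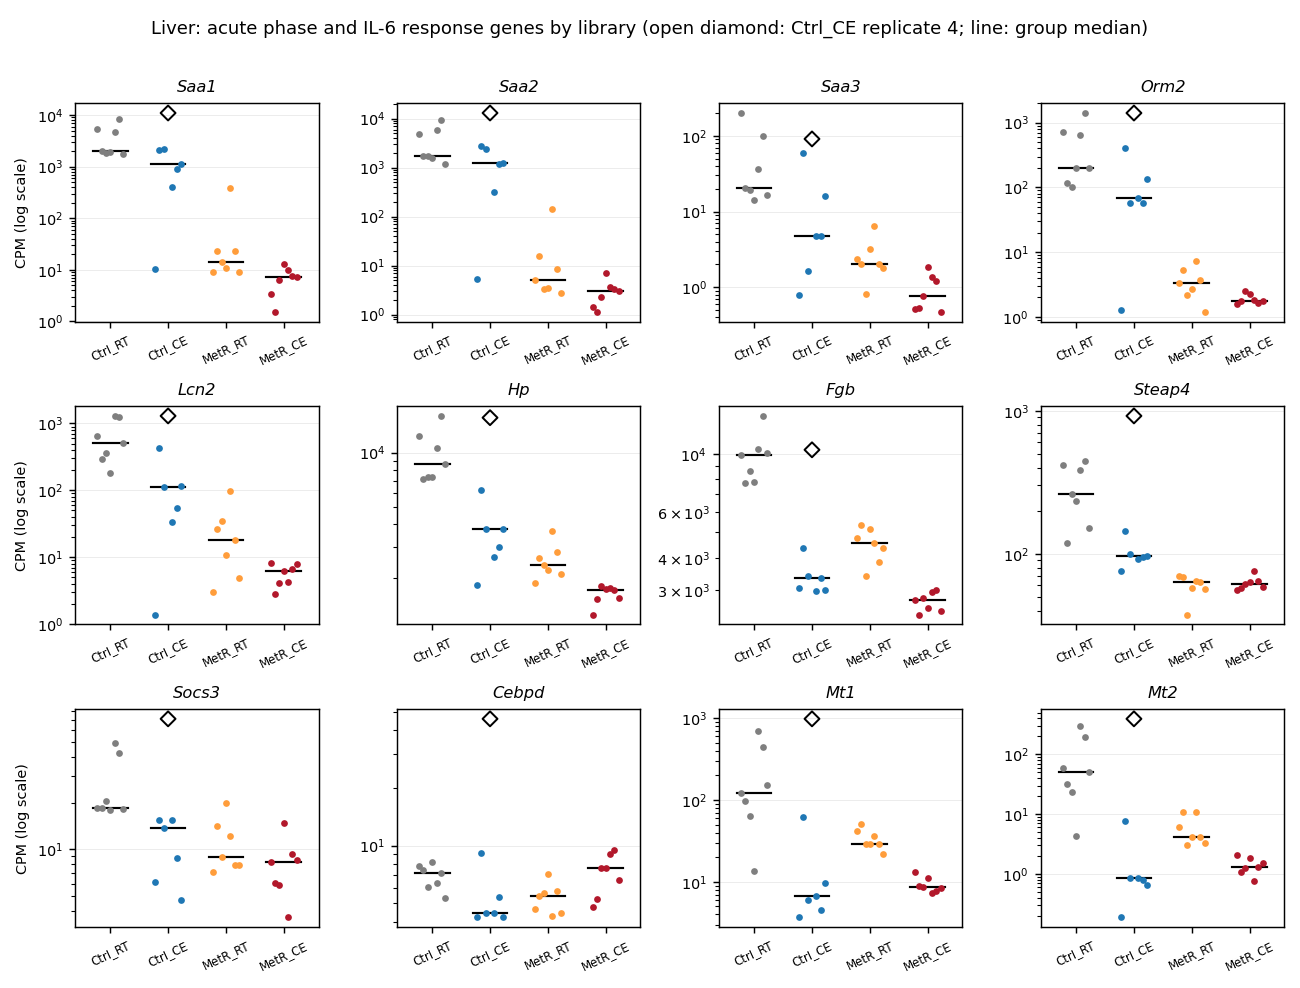
Level in CPM (log axis) of 12 acute phase genes in each of the 28 liver libraries, by group. Points are libraries, the line is the group median and the open diamond is Ctrl_CE replicate 4, which is the highest Ctrl_CE library in all 12 panels. The 14 MetR libraries lie below all Ctrl_RT libraries in Saa1, Saa2, Saa3, Orm2, Lcn2, Hp, Fgb and Steap4.

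The abundant plasma carriers fell less. Haptoglobin (Hp), which binds free haemoglobin, had 7109.8, 8649 and 16013 CPM in Ctrl_RT, 1833, 3760.3 and 15654 in Ctrl_CE, while MetR_RT had 1877, 2370.4 and 3664 and MetR_CE 1257, 1723 and 1806. Hemopexin (Hpx), which binds free haem, had 8715, 9473 and 19248 CPM in Ctrl_RT, 2752, 4463 and 19113 in Ctrl_CE, while MetR_RT had 3427, 4100.4 and 5011 and MetR_CE 2617, 2968 and 3256. Both had every restricted library below every Ctrl_RT library. Hp changed by -1.98 ± 0.31 in MetR_RT and -2.61 ± 0.32 in MetR_CE, and Hpx by -1.51 ± 0.27 and -2.005 ± 0.27. The copper ferroxidase Cp moved by -0.62 ± 0.15 and -0.69 ± 0.15. The fibrinogen chains, which form the clot, fell in step. Fga had 7889, 10736 and 15241 CPM in Ctrl_RT, 3364, 4179.8 and 12597 in Ctrl_CE, while MetR_RT had 3339.6, 5036 and 5361 and MetR_CE 2655, 3019 and 3395. Fgb had 7715, 9873 and 13960.4 CPM in Ctrl_RT, 2986, 3331 and 10355 in Ctrl_CE, while MetR_RT had 3403, 4572 and 5323 and MetR_CE 2424, 2761 and 3000.3. Fgg lay in the same range, with 6207 to 11527 CPM in Ctrl_RT and 2902 to 4437 in MetR_RT, and in all 3 chains the restricted libraries lay below those of Ctrl_RT. Their log2 fold changes in MetR_RT were -1.21 ± 0.21, -1.12 ± 0.20 and -1.14 ± 0.21, and in MetR_CE -1.80 ± 0.21, -1.85 ± 0.21 and -1.92 ± 0.21. The 2 inter-alpha-trypsin inhibitor heavy chains, Itih3 and Itih4, changed by -1.19 ± 0.26 and -1.08 ± 0.25 in MetR_RT, and by -1.48 ± 0.26 and -1.34 ± 0.25 in MetR_CE.

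Among the serpins of the A3 family, protease inhibitors of the antichymotrypsin type, Serpina3n had 913, 1612 and 2711 CPM in Ctrl_RT, 364, 598 and 3308 in Ctrl_CE, while MetR_RT had 335, 386 and 556 and MetR_CE 379, 393 and 482. Serpina3k had 11495, 15609 and 16390.2 CPM in Ctrl_RT, 5709.7, 7358 and 9203 in Ctrl_CE, while MetR_RT had 4693, 5829 and 6436 and MetR_CE 3875, 4820.2 and 6219.8, and in both genes no restricted library reached the lowest Ctrl_RT value. Serpina3n changed by -2.04 ± 0.34 and -2.02 ± 0.34 in the restricted groups, and Serpina3k by -1.32 ± 0.13 and -1.495 ± 0.13. Serpina3m did not pass the test in any contrast (-0.12 ± 0.18 in MetR_RT). The pentraxins did not pass either, although pentraxins include the best known human acute phase protein. Crp had 351, 482 and 563 CPM in Ctrl_RT, 329, 370.5 and 778 in Ctrl_CE, while MetR_RT had 307, 378 and 464 and MetR_CE 347, 378 and 434, with a change of -0.26 ± 0.15 (95% interval -0.54 to 0.03). Apcs, the serum amyloid P component, had 156, 296.2 and 591 CPM in Ctrl_RT, 75.9, 104 and 937 in Ctrl_CE, while MetR_RT had 119, 262.8 and 477 and MetR_CE 126, 182 and 217, with a change of -0.32 ± 0.43.

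Of Il6ra, Il6st, Il1r1 and Il1rn, 1 gene, the IL-1 signalling receptor Il1r1, fell against Ctrl_RT in liver. Il1r1 had 47.7, 106 and 202 CPM in Ctrl_RT, 22.5, 25.9 and 144 in Ctrl_CE, while MetR_RT had 27.5, 36.7 and 52.2 and MetR_CE 17.3, 22.95 and 33.4 and changed by -1.55 ± 0.34, adjusted p = 0.00133 in MetR_RT and -2.28 ± 0.35, adjusted p = 7.19e-06 in MetR_CE. Il6ra had 28.6, 42.3 and 55.4 CPM in Ctrl_RT, 17.5, 28.99 and 60.4 in Ctrl_CE, while MetR_RT had 35.2, 43.9 and 63.4 and MetR_CE 31.6, 55.6 and 75.6, and did not pass the test against Ctrl_RT (0.11 ± 0.20 and 0.32 ± 0.20). Il6st had 0.35 ± 0.10 in MetR_CE, with an adjusted p of 0.00773 but a change under the threshold of size. Il1rn, the secreted antagonist of IL-1, had 1.17, 4.40 and 5.24 CPM in Ctrl_RT, 0.883, 2.02 and 15 in Ctrl_CE, while MetR_RT had 1.04, 1.53 and 2.83 and MetR_CE 0.965, 1.38 and 2.77, and its change was -1.11 ± 0.46, adjusted p = 0.0894 in MetR_RT. Downstream, Stat3 itself had 167, 213 and 261.4 CPM in Ctrl_RT, 116, 129 and 337 in Ctrl_CE, while MetR_RT had 102, 117 and 164 and MetR_CE 114, 130.1 and 172 and changed by -0.81 ± 0.17 and -0.70 ± 0.17. Socs3, the feedback inhibitor that Stat3 induces, had 18.1, 18.7 and 49.1 CPM in Ctrl_RT, 4.69, 13.8 and 70.7 in Ctrl_CE, while MetR_RT had 7.15, 8.93 and 19.9 and MetR_CE 3.61, 8.33 and 14.9 and changed by -1.24 ± 0.42, adjusted p = 0.0376 and -1.70 ± 0.44. Steap4, a metalloreductase that IL-6 induces in hepatocytes, had 119, 261.1 and 447 CPM in Ctrl_RT, 75.3, 96.2 and 919.6 in Ctrl_CE, while MetR_RT had 37.6, 63.4 and 69.8 and MetR_CE 56.1, 61.5 and 76.03, and none of the 14 restricted libraries reached the lowest Ctrl_RT value. It changed by -2.27 ± 0.43 and -2.20 ± 0.43. Cebpb and Cebpd, transcription factors of the same promoters, did not pass the test (-0.35 ± 0.19 and -0.38 ± 0.40 in MetR_RT).

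The metallothioneins, which bind zinc and copper, had the widest range of all members among the Ctrl_RT libraries, relative to the lowest. Mt1 had 13.6, 123 and 699 CPM in Ctrl_RT, 3.67, 6.71 and 984 in Ctrl_CE, while MetR_RT had 22.02, 28.97 and 50.5 and MetR_CE 7.30, 8.61 and 13.3. Mt2 had 4.36, 49.7 and 302 CPM in Ctrl_RT, 0.186, 0.856 and 393 in Ctrl_CE, while MetR_RT had 3.07, 4.19 and 10.9 and MetR_CE 0.768, 1.30 and 2.08. For both, MetR_RT overlapped Ctrl_RT. Mt1 changed by -2.75 ± 0.94, adjusted p = 0.0372 and Mt2 by -3.98 ± 1.13, adjusted p = 0.0118 in MetR_RT. In MetR_CE, where no library reached the lowest Ctrl_RT value, the changes were -4.60 ± 1.04, adjusted p = 0.000894 and -6.06 ± 1.35, adjusted p = 0.000757. Without MetR_RT replicate 5, the mouse with the high Saa1, the calls of Mt1 and Socs3 in MetR_RT were lost, with log2 fold changes of -2.78 ± 1.01, adjusted p = 0.0579 and -1.27 ± 0.45, adjusted p = 0.0508, and 23 members fell. Summed neutrophil markers were 1.61 to 7.37 CPM in Ctrl_RT and 0.412 to 1.51 in MetR_RT, and macrophage and Kupffer cell markers 337 to 475 and 165 to 313. Their part in these changes was not tested.

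Cold on the control diet gave a result in liver that depended on 1 mouse. With all 7 Ctrl_CE libraries, 9 members fell and 0 rose (all genes 4.64% and 7.28%). Those that fell were Saa4, Lrg1, Hp, Hpx, the 3 fibrinogen chains, Serpina3k and Il1r1. Fgb was 7715 to 13960.4 CPM in Ctrl_RT, and in Ctrl_CE it was 10355 in replicate 4 and 2986 to 4353 in the other 6, with a change of -1.16 ± 0.20, adjusted p = 6.2e-05. Without replicate 4, 25 of 33 fell and 0 rose, where 4.78% of all genes fell. Those added included Lcn2, the orosomucoids, Saa3, Itih3, Itih4, Serpina3n, Stat3, Socs3, Steap4, Mt1, Mt2, Apcs, Il1rn and Il6ra. Replicate 4 was set apart because 32 of the 33 members were highest in it, so leaving it out lowers their Ctrl_CE values by construction. All genes were not selected in this way, so liver counts without it are no even comparison with the shares of all genes.

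The metallothioneins changed the most of all members when this library was left out. Mt2 was 393 CPM in Ctrl_CE replicate 4 and 0.186 to 7.68 in the other 6, against 4.36 to 302 in Ctrl_RT. Its change was -0.75 ± 0.97 with the library and -5.62 ± 0.75, adjusted p = 1.42e-06 without it. Mt1 went from -0.58 ± 0.87 to -3.84 ± 0.66, adjusted p = 4.6e-05. Steap4 was 919.6 CPM in replicate 4 and 75.3 to 145 in the others, and changed by -1.51 ± 0.22 without it. Socs3 changed by -1.29 ± 0.31 and Orm2 by -1.98 ± 0.63. Cebpd, which glucocorticoids and IL-6 both induce, was 46.02 CPM in replicate 4 and 4.21 to 9.14 in the others, and passed the test in neither fit. Saa1 and Saa2 stayed short of the threshold without the library (-1.73 ± 0.81, adjusted p = 0.112, and -1.49 ± 0.83, adjusted p = 0.189), and their other values spread from 10.2 and 5.39 CPM in replicate 1 to 2188 and 2744 in replicates 3 and 2. Markers of other liver cells were higher in the cold, with 7 of 10 macrophage and Kupffer cell markers and 8 of 9 endothelial and stellate cell markers called up and 0 down (6 and 7 without replicate 4). Their sums were 337 to 475 CPM in Ctrl_RT and 311 to 1328 in Ctrl_CE for the first list, with the highest value in replicate 2, and 202 to 376 and 412 to 577 for the second, and their part in the members' changes was not tested. Leaving out replicate 1 instead left 9 members fallen (all genes 4.35%), and leaving out both left 23 (all genes 4.57%).

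**Figure D2:**
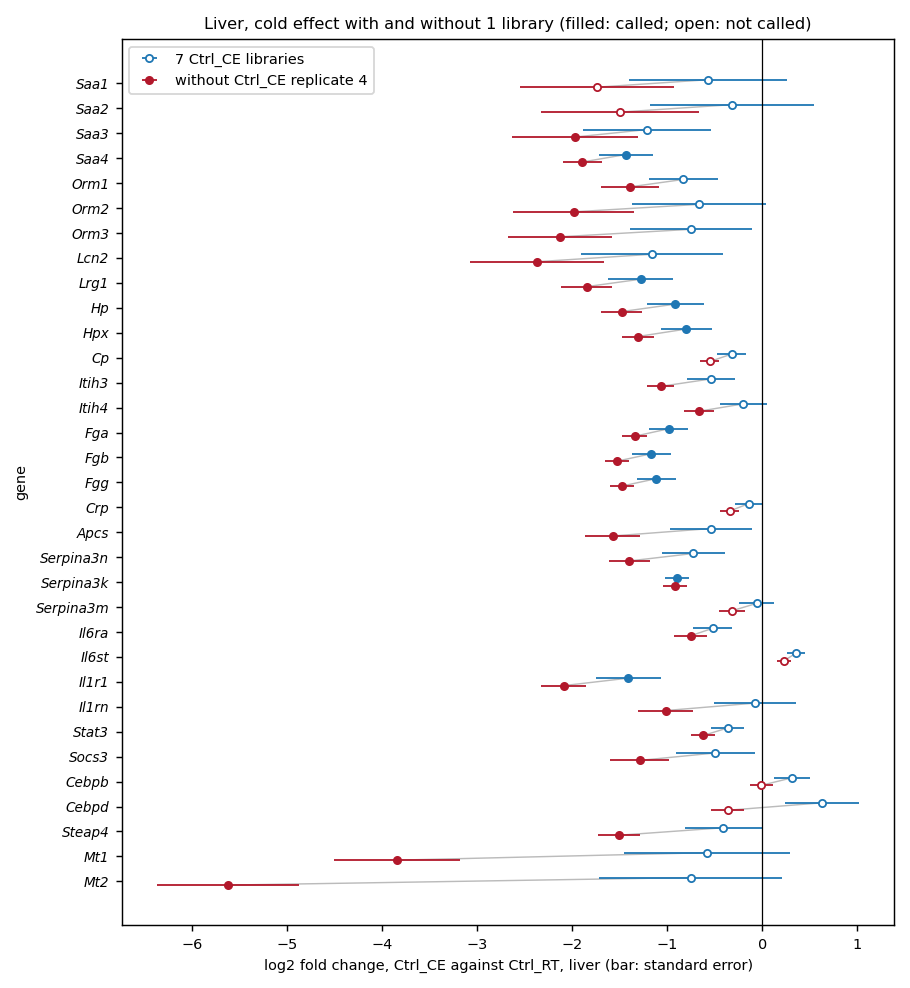
Log2 fold change of each of the 33 genes between Ctrl_CE and Ctrl_RT in liver (x axis, bars are standard errors), with all 7 Ctrl_CE libraries (blue) and without Ctrl_CE replicate 4 (red). Filled points passed the test, which 9 genes did with the library and 25 without it, and Mt1 and Mt2 moved the farthest between the fits.

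The effect of cold differed between the diets for 1 member in liver, Serpina3k, with an interaction of 0.72 ± 0.17, adjusted p = 0.0296 (all genes 0.375% up and 0.682% down). Cold lowered it on the control diet (-0.90 ± 0.12) and gave -0.17 ± 0.12 on the restricted diet. Leaving out Ctrl_CE replicate 4, the interaction was positive and called for 12 members, among them the 3 fibrinogen chains, Steap4, Saa4, Stat3 and Il1r1, where 0.684% of all genes were called up. Within the restricted diet, cold lowered 5 members and raised 0 (all genes 2.44% and 2.75%), which were Saa1, Saa2 and the fibrinogen chains. Without MetR_RT replicate 5 this was Fgb and Fgg alone. Within the cold, restriction lowered 21 members and raised 1 (all genes 4.1% and 1.17%). The one that rose was Il6ra, at 0.84 ± 0.20, adjusted p = 0.00548, and Saa1 changed by -8.49 ± 1.17, adjusted p = 1.48e-05. When Ctrl_CE replicate 4 was left out, 13 fell (all genes 3.71%), and those lost were Fga, Fgb, Fgg, Itih3, Mt1, Mt2, Serpina3k and Serpina3n.

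Other genes of these pathways moved less uniformly in liver. Of 42 other genes of IL-6, IL-1 and NF-kB signalling, 0 rose and 5 fell in MetR_RT, with Osmr (-1.08 ± 0.31) and Lifr (-0.91 ± 0.16), receptors of IL-6 family cytokines, and Bcl3 (-0.91 ± 0.23) the largest. In Ctrl_CE 3 rose, among them Tnf (3.14 ± 1.01) and Tnfaip3 (1.58 ± 0.47), and 2 fell, whereas without replicate 4, 0 of 40 rose and 5 fell, with -0.74 ± 0.48 for Tnf and 0.36 ± 0.20 for Tnfaip3. In MetR_CE 0 rose and 7 fell. Of 28 further positive acute phase proteins, 7 fell and 3 rose in MetR_RT, 7 and 5 in Ctrl_CE, and 8 and 5 in MetR_CE. A2m, a broad protease inhibitor, changed by -2.51 ± 0.49, -4.04 ± 0.58 and -4.78 ± 0.68 in Ctrl_CE, MetR_RT and MetR_CE, and the fibrinogen-like Fgl1 by -2.19 ± 0.36 and -2.77 ± 0.36 in the restricted groups. Of 17 negative acute phase proteins, which the response lowers, 1 rose and 3 fell in MetR_RT. Serpina6, the corticosteroid-binding globulin, rose in all 3 (1.03 ± 0.15, 1.84 ± 0.15 and 1.58 ± 0.15), whereas Ambp fell (-0.95 ± 0.14 in MetR_RT). Of 15 glucocorticoid receptor targets, 5 rose and 1 fell in Ctrl_CE, while for MetR_RT the counts were 1 and 1 and for MetR_CE 5 and 2. Of 8 metal-responsive genes tested, 2, 1 and 0 rose and 0, 0 and 2 fell, with Gclc up in MetR_RT (1.03 ± 0.13) and Hmox1 up in Ctrl_CE (1.06 ± 0.22). In Ctrl_CE without replicate 4, the counts up and down were 4 and 9 for the positive and 1 and 3 for the negative acute phase proteins, 4 and 2 for the glucocorticoid receptor targets and 2 and 0 for the metal-responsive genes.

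In iBAT, 31 members were tested, since Saa4 and Apcs were too rare, and 12 of the 31 had a median under 1 CPM in every group. Cold on the control diet raised 5 and lowered 10 (all genes 4.97% and 9.72%). Restriction at room temperature raised 0 and lowered 11 (all genes 0.535% and 1.97%), and both together raised 1 and lowered 12 (all genes 4.36% and 10.3%). Cold raised 4 and lowered 13 (all genes 5.15% and 9.89%) when Ctrl_CE replicate 4 was left out. Mt1 and Orm1 were then lost and Cebpd, Il6ra, Serpina3m and Socs3 added. Ctrl_RT replicate 5 held transcripts of hepatocytes, with 38.2 CPM of Alb and a sum of 71.96 CPM over the 14 hepatocyte markers other than Cyp2e1, where the next highest iBAT library had 6.88. The same library held 2.55 CPM of Fgb, 2.63 of Fgg and 5.15 of Serpina3k. Without it 8 members fell in Ctrl_CE (Fga, Fgb and Fgg were lost, Crp was too rare to be tested, and Il6ra and Saa2 were added, with 5 risen), 6 in MetR_RT (Fga, Fgb, Fgg, Itih3 and Serpina3m were lost) and 11 in MetR_CE (Fgb and Fgg were lost and Il6ra added). Of all genes, 9.39%, 1.66% and 9.73% fell there, in that order. The liver-type members under 1 CPM are therefore given as counts. Fibroblast markers summed to 455 to 1032 CPM in Ctrl_RT, 261.5 to 588 in Ctrl_CE, 232 to 357 in MetR_RT and 177 to 314 in MetR_CE, and their part in the results was not tested.

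Steap4, which in adipocytes is induced by feeding and TNF, fell in all 3 treated groups of iBAT. It had 103, 139 and 203 CPM in Ctrl_RT, 36.1, 38.1 and 54.7 in Ctrl_CE, while MetR_RT had 50.02, 65.8 and 81.6 and MetR_CE 28.9, 36.9 and 49.8. All other groups lay below Ctrl_RT, and the log2 fold changes were -1.79 ± 0.15, adjusted p = 9.22e-11 in Ctrl_CE, -1.12 ± 0.14, adjusted p = 5.7e-06 in MetR_RT and -1.94 ± 0.14, adjusted p = 1.28e-11 in MetR_CE. The interaction was 0.97 ± 0.20, adjusted p = 0.0121, so that cold lowered it less on the restricted diet. It was the 1 member called in that test (all genes 0.247% up and 0.125% down), and it was not called when the treatment tag set the groups. Lrg1 had 26.1, 27.4 and 33.4 CPM in Ctrl_RT, 11.3, 17.3 and 25.3 in Ctrl_CE, while MetR_RT had 12.7, 15.1 and 21.9 and MetR_CE 8.99, 11.03 and 14.5, and its 3 treated groups also lay below Ctrl_RT, with -0.68 ± 0.14, -0.81 ± 0.14 and -1.32 ± 0.14. Orm3 had 6.25, 7.76 and 10.2 CPM in Ctrl_RT, 1.44, 1.84 and 3.22 in Ctrl_CE, while MetR_RT had 5.58, 8.405 and 12.1 and MetR_CE 2.65, 3.94 and 7.72 and fell with cold on both diets (-1.91 ± 0.26 and -0.81 ± 0.23), but not with restriction alone (0.16 ± 0.23). Orm1 (-0.61 ± 0.18) and Cp (-0.90 ± 0.22) fell in Ctrl_CE, and without replicate 4 Orm1 was short of the threshold of size (-0.55 ± 0.19).

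Hpx, Il1r1, Il1rn, Mt1 and Mt2 rose in iBAT in the cold on the control diet. Hpx had 0.344, 0.675 and 2.75 CPM in Ctrl_RT, 1.73, 5.90 and 7.01 in Ctrl_CE, while MetR_RT had 0.207, 0.473 and 0.698 and MetR_CE 1.09, 2.10 and 2.92 and changed by 2.42 ± 0.36, adjusted p = 4.09e-06 in Ctrl_CE and 0.99 ± 0.37, adjusted p = 0.037 in MetR_CE. Il1r1 had 7.62, 9.97 and 10.3 CPM in Ctrl_RT, 13.5, 15.3 and 17.1 in Ctrl_CE, while MetR_RT had 7.25, 7.57 and 8.58 and MetR_CE 10.6, 13.7 and 15.1, with all Ctrl_CE libraries above all Ctrl_RT libraries and a change of 0.67 ± 0.09. Il1rn rose by 1.15 ± 0.32. Mt1 had 79.2, 88.4 and 113 CPM in Ctrl_RT, 104, 118 and 284.9 in Ctrl_CE, while MetR_RT had 60.8, 75.2 and 85.97 and MetR_CE 75.2, 89.4 and 112, where the highest Ctrl_CE value was that of replicate 4. Mt1 changed by 0.68 ± 0.17 and Mt2 by 1.097 ± 0.28, and without replicate 4 they had 0.38 ± 0.10, which did not pass, and 0.60 ± 0.19, adjusted p = 0.0166. On the restricted diet Serpina3n had 3.18, 6.85 and 11.8 CPM in Ctrl_RT, 0.938, 4.62 and 12.9 in Ctrl_CE, while MetR_RT had 0.946, 1.35 and 1.91 and MetR_CE 0.318, 1.40 and 2.94, and fell by 2.33 ± 0.42 in MetR_RT and 2.17 ± 0.41 in MetR_CE on the log2 scale. Hp fell in MetR_RT alone (-0.74 ± 0.20, adjusted p = 0.024), and Socs3 in MetR_CE (-1.19 ± 0.28, adjusted p = 0.00146). The interaction was called up for 4 members without Ctrl_CE replicate 4 (Steap4, Hp, Serpina3k and Cebpd), where 0.5% of all genes were called up.

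Among the other genes of the pathways in iBAT, 0, 0 and 1 of 41 genes of IL-6, IL-1 and NF-kB signalling rose and 3, 1 and 7 fell in Ctrl_CE, MetR_RT and MetR_CE, with Il1r2 (-2.37 ± 0.70 in MetR_RT) the one called in MetR_RT. Of 8 metal-responsive genes, 2, 1 and 1 rose and 0 fell, with Hmox1 called in each (1.14 ± 0.19, 0.88 ± 0.19 and 1.48 ± 0.19). Of 15 glucocorticoid targets, 2, 0 and 2 rose and 3, 1 and 3 fell. The lists of further positive and of negative acute phase proteins were led by liver transcripts such as Plg, Alb and Apoa1 in this depot, with 10, 8 and 10 of 26 and 7, 6 and 9 of 16 called lower, and 3, 0 and 2, and 1, 0 and 0 called higher. In Ctrl_CE without replicate 4, 1 signalling gene rose and 2 fell, 10 of the negative acute phase proteins fell, and the other counts up and down were those given.

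In iWAT, 31 members were tested and 8 had a median under 1 CPM in every group. Cold raised 3 and lowered 9 (all genes 5.99% and 9.94%), restriction raised 2 and lowered 14 (all genes 4.25% and 7.36%), and both together raised 2 and lowered 15 (all genes 8.05% and 14.4%). The markers of fibroblasts and macrophages in this depot were lower in the treated groups as well. Fibroblast and progenitor markers, all 8 detected, summed to 8169, 14939 and 24966 CPM (lowest, median and highest) in Ctrl_RT, 1445, 4680.3 and 11616 in Ctrl_CE, while MetR_RT had 2474, 2897 and 7364 and MetR_CE 1406, 2157 and 2544. Macrophage markers, with Clec4f at 0 in Ctrl_RT and the other 9 detected, summed to 1283 to 2024, 261.2 to 1439.8, 221 to 937 and 171 to 428. Adipocyte markers summed to 14387 to 19054 CPM in Ctrl_RT and 21402 to 23697 in MetR_CE. The part of these cells in the changes of the members was not tested.

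The antagonist Il1rn, which macrophages and neutrophils express, fell in all 3 treated groups of iWAT. It had 1.98, 5.45 and 72.4 CPM in Ctrl_RT, 0, 1.41 and 4.11 in Ctrl_CE, while MetR_RT had 0.243, 0.853 and 1.04 and MetR_CE 0.145, 0.371 and 0.657. The highest value belonged to Ctrl_RT replicate 7, whose neutrophil markers summed to 104 CPM where the group's median was 8.26. The changes were -3.28 ± 0.72, adjusted p = 0.00103, -4.40 ± 0.78, adjusted p = 0.000215 and -5.37 ± 0.88, adjusted p = 2.28e-05, and without that library -1.85 ± 0.55, -2.96 ± 0.58 and -3.94 ± 0.65. Socs3 had 16.5, 24.3 and 32.6 CPM in Ctrl_RT, 4.02, 7.24 and 17.9 in Ctrl_CE, while MetR_RT had 5.47, 8.08 and 20.5 and MetR_CE 4.05, 5.09 and 6.55, and changed by -1.504 ± 0.27, -1.26 ± 0.27 and -2.14 ± 0.29. Il1r1 had 49.7, 63.0 and 78.3 CPM in Ctrl_RT, 27, 34.5 and 50.4 in Ctrl_CE, while MetR_RT had 24.97, 27.3 and 48.7 and MetR_CE 21.9, 27.1 and 29.5, with -0.78 ± 0.15, -0.92 ± 0.15 and -1.24 ± 0.16. Both restricted groups of Il1r1 lay below all Ctrl_RT libraries. Il6st and Il6ra also had negative values, at -0.46 ± 0.08 and -0.35 ± 0.14 in MetR_RT, but under the threshold of size.

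The serpins fell together in iWAT. Serpina3k had 5.18, 13.2 and 25.4 CPM in Ctrl_RT, 0.644, 2.34 and 3.82 in Ctrl_CE, while MetR_RT had 0.226, 0.523 and 5.50 and MetR_CE 0.0296, 0.366 and 1.37, and changed by -2.67 ± 0.60, -3.17 ± 0.62 and -4.48 ± 0.71. Serpina3m had 3.87, 4.19 and 4.90 CPM in Ctrl_RT, 0.965, 1.69 and 2.46 in Ctrl_CE, while MetR_RT had 0.154, 1.81 and 5.44 and MetR_CE 0.608, 0.983 and 1.13, and changed by -1.37 ± 0.36, -1.05 ± 0.35 and -2.19 ± 0.39. Serpina3n, with 261.9 to 486 CPM in Ctrl_RT and 108 to 195 in MetR_CE, fell in the restricted groups (-0.98 ± 0.24 and -1.13 ± 0.25). Hp had 1162, 1414 and 3123 CPM in Ctrl_RT, 746, 1024 and 1585 in Ctrl_CE, while MetR_RT had 661, 1015 and 1451 and MetR_CE 896, 1159 and 1352 and fell in all 3 (-0.69 ± 0.20, -0.72 ± 0.20 and -0.59 ± 0.21). The same held for Mt1 (-0.61 ± 0.22, -0.91 ± 0.22 and -0.70 ± 0.23) and for Mt2, which had 10.2, 24.01 and 86.8 CPM in Ctrl_RT, 3.33, 6.16 and 24.3 in Ctrl_CE, while MetR_RT had 3.596, 5.54 and 8.56 and MetR_CE 4.31, 5.87 and 7.55 and changed by -2.08 ± 0.41, -2.52 ± 0.42 and -2.49 ± 0.44. Saa3 had 3.56, 10 and 12.7 CPM in Ctrl_RT, 0.432, 6.26 and 22.01 in Ctrl_CE, while MetR_RT had 0.0615, 0.583 and 10.6 and MetR_CE 0, 0.280 and 0.645. It fell in MetR_CE (-5.09 ± 0.99, adjusted p = 0.000182), where all 6 libraries lay below Ctrl_RT, and its MetR_RT libraries spread from 0.0615 to 10.6 CPM (-2.02 ± 0.76, adjusted p = 0.0544). Itih4 and Cebpd fell in MetR_CE, by 1.84 ± 0.47 and 0.97 ± 0.35, and Lrg1 in MetR_RT, by 0.68 ± 0.19. Lcn2 passed the test in both restricted groups (-1.52 ± 0.53, adjusted p = 0.0384, and -1.43 ± 0.55, adjusted p = 0.0419) and in neither without Ctrl_RT replicate 7.

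Cebpb, the C/EBP factor of adipogenesis and the acute phase, rose in iWAT. It had 117, 158 and 196 CPM in Ctrl_RT, 141, 311 and 459 in Ctrl_CE, while MetR_RT had 132, 250.3 and 374 and MetR_CE 212, 244.97 and 296.3, and changed by 0.96 ± 0.21, 0.64 ± 0.21 and 0.71 ± 0.22. Hpx had 0.141, 0.260 and 0.504 CPM in Ctrl_RT, 0.185, 0.538 and 2.04 in Ctrl_CE, while MetR_RT had 0.0565, 0.277 and 0.774 and MetR_CE 0.524, 1.03 and 1.80, and rose in the cold on both diets (1.33 ± 0.45 and 1.82 ± 0.45), with a median over 1 CPM in MetR_CE alone. Orm3 rose in MetR_RT (0.90 ± 0.26, adjusted p = 0.0136), and Fga rose in Ctrl_CE from 0 to 0.260 CPM to 0 to 1.41. Steap4 had 159, 452 and 633 CPM in Ctrl_RT, 166, 219 and 258.3 in Ctrl_CE, while MetR_RT had 193, 243.4 and 325 and MetR_CE 290.2, 308 and 362, and fell in Ctrl_CE (-0.93 ± 0.19) and MetR_RT (-0.69 ± 0.19) but not in MetR_CE (-0.38 ± 0.19). Its interaction was 1.25 ± 0.27, adjusted p = 0.016. Mt2 was the other member with an interaction, at 2.10 ± 0.58, adjusted p = 0.0455, and 2 members were called up and 0 down there (all genes 0.511% and 1.14%). Without Ctrl_RT replicate 7 the interaction of Mt2 was 2.02 ± 0.60, adjusted p = 0.0688. Without Ctrl_CE replicate 4, 12 members fell and 1 rose in Ctrl_CE (all genes 8.83% and 5.95%). Cebpd, Il6ra and Lcn2 were added to those that fell, and Fga and Hpx were no longer called.

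Of 41 other genes of IL-6, IL-1 and NF-kB signalling in iWAT, 1 rose and 15 fell in Ctrl_CE, while for MetR_RT the counts were 1 and 11 and for MetR_CE 4 and 18. Il1b led in all 3 (-3.38 ± 0.78, -4.78 ± 0.87 and -4.82 ± 0.92), with Tnf (-2.06 ± 0.70 in Ctrl_CE), Il33 (-1.91 ± 0.37) and, in MetR_RT, Il6 itself (-2.29 ± 0.67). Il6 was 0.0840 to 1.11 CPM in Ctrl_RT and 0 to 0.113 in MetR_RT. Of 9 metal-responsive genes, 0 rose and 2, 3 and 3 fell, among them Hmox1 (-1.97 ± 0.38 in MetR_RT) and the zinc importer Slc39a14 (-0.91 ± 0.19). Of 26 further positive acute phase proteins, 6, 3 and 7 rose and 5, 3 and 5 fell. The macrophage chitinase-like gene Chil3 led those that fell (-2.80 ± 0.70, -4.48 ± 0.78 and -4.80 ± 0.84). Of 16 negative acute phase proteins, 5, 1 and 3 rose and 0, 0 and 1 fell, and of 15 glucocorticoid targets 3, 2 and 6 rose and 0, 2 and 2 fell, with Pdk4 up in all 3 (1.97 ± 0.47, 1.64 ± 0.47 and 2.38 ± 0.49). In Ctrl_CE without replicate 4, the counts up and down were 1 and 15 for the signalling genes, 0 and 1 for the metal-responsive genes, 4 and 6 for the positive and 3 and 1 for the negative acute phase proteins, and 2 and 2 for the glucocorticoid targets.

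**Figure D3:**
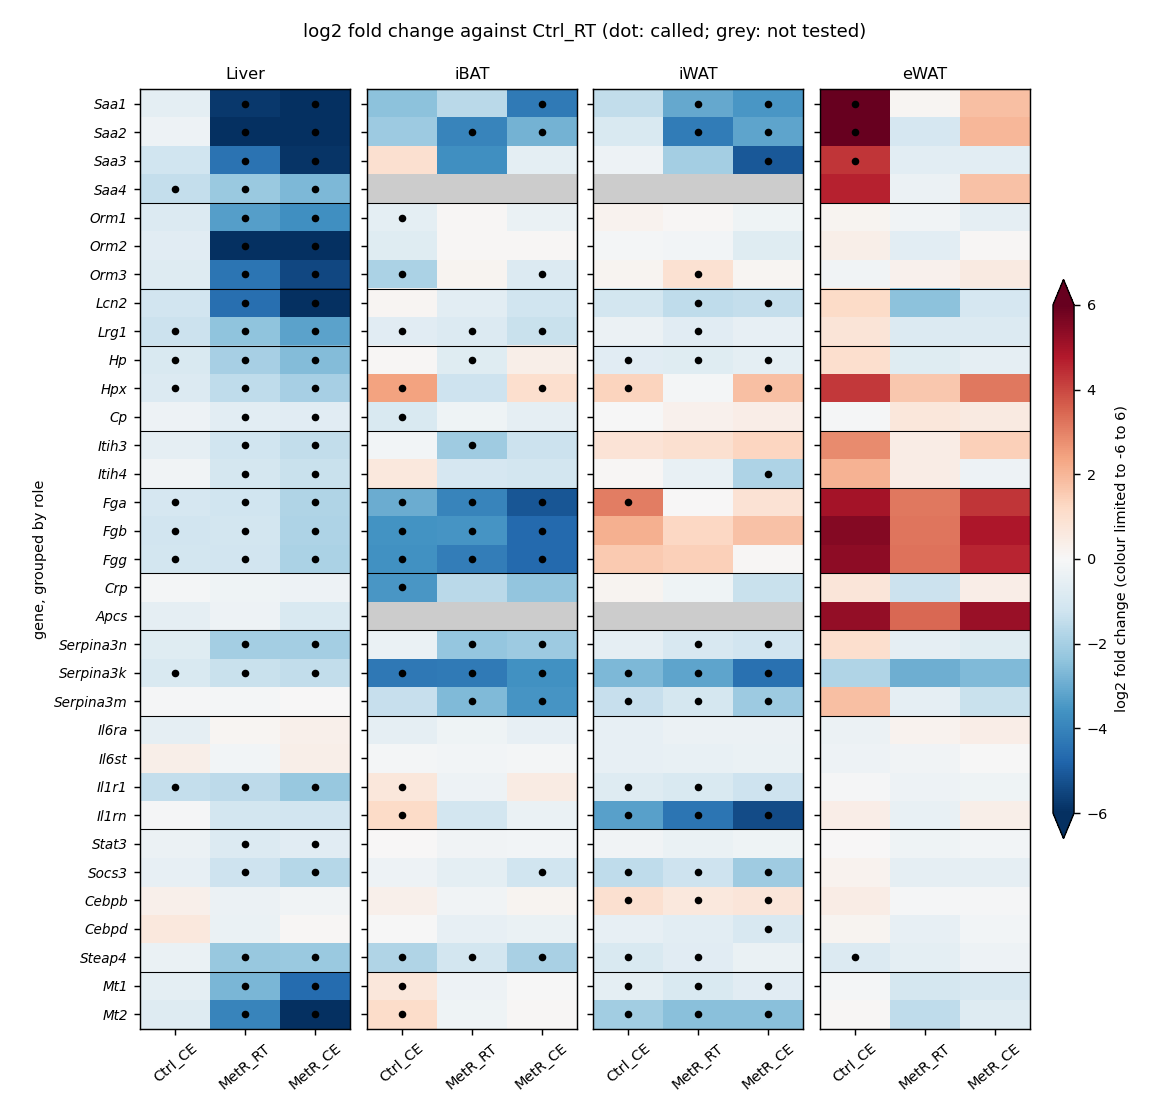
Log2 fold change of the 33 genes (rows, grouped by role) in Ctrl_CE, MetR_RT and MetR_CE against Ctrl_RT (columns) in the 4 tissues, as colour, with a dot where the change passed the test and grey where the gene was not tested. Liver has 25 dots in each MetR column, iWAT 12, 16 and 17 over its 3 columns, and eWAT 4 in the Ctrl_CE column and none in the others.

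In eWAT, all 33 members were tested, with only 4 Ctrl_RT libraries as reference. Cold on the control diet raised 3 members, Saa1, Saa2 and Saa3, and lowered 1, Steap4 (all genes 0.979% and 1.44%). Restriction at room temperature and both together called 0 members in either direction with edgeR. Few genes of any kind were called there, 0.0324% up and 0.0828% down in MetR_RT, and 0.601% up and 0.695% down in MetR_CE. At an unadjusted p under 0.05, 1 member was higher and 6 were lower in MetR_RT, and 7 were higher and 3 lower in MetR_CE, where 9.44% and 15.2% of all genes had such a p in either direction. DESeq2 without shrinkage called 1 up and 2 down in MetR_RT, and 0 up and 1 down in MetR_CE. With all 7 Ctrl_RT libraries, the 3 left out included, 10 members rose and 0 fell in Ctrl_CE. The shares of all genes called in the DESeq2 fit and in this fit are not given, so these counts are not read as results about the members.

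Serum amyloid A in cold eWAT was high in some of the mice. Saa3 was 5.33, 5.43, 1.46 and 2.89 CPM in the 4 Ctrl_RT libraries. In Ctrl_CE it was 231 in replicate 3, 258.96 in replicate 4 and 2.35 to 8.58 in the other 5. The change was 4.28 ± 1.23, adjusted p = 0.0433. Saa1 was 0, 0.102, 0.143 and 0.0425 CPM in Ctrl_RT, and 8.13, 11.9, 35.2 and 4.66 in Ctrl_CE replicates 3, 4, 5 and 6. Replicates 5 and 6 also carried hepatocyte RNA, with 55.3 and 146 CPM of Alb and 16.5 and 9.54 of Fgb, where replicates 3 and 4 had 10.9 and 3.26 of Alb and 0 and 0.0350 of Fgb. Saa1 changed by 6.77 ± 1.60, adjusted p = 0.0158 and Saa2 by 7.32 ± 1.81, adjusted p = 0.0206. Without Ctrl_CE replicate 4 the change of Saa3 was 3.49 ± 1.13, adjusted p = 0.0606, and 2 members rose (all genes 1.59%). Without replicates 3 and 4 Saa3 had 0.32 ± 0.53, adjusted p = 0.833. Without replicates 5 and 6 Saa2 was lost, and Saa1 had 5.71 ± 1.503, adjusted p = 0.0486. Leaving out 1 Ctrl_RT library at a time gave 0, 1, 2 and 0 members risen for replicates 1, 3, 6 and 7 (all genes 0.297%, 0.88%, 0.673% and 0.434%).

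The same 2 mice were high in other members that adipose tissue expresses. In eWAT of Ctrl_CE replicates 3 and 4, Hp was 9104 and 11711 CPM where the group's median was 1609, Lrg1 was 839.7 and 518 against 188, and Serpina3n was 1599 and 2206 against 392. Mt2 was 45.6 and 73.1 against 10.4. Cebpd was 15.5 and 100.5 against 15.5, so that it was high in replicate 4 alone. Neutrophil markers were high in replicate 4, at 53.2 CPM, and S100a8 was 2.35 CPM in replicate 3 and 14.05 in replicate 4. The part of neutrophils was not tested.

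In eWAT, the Ctrl_RT and Ctrl_CE libraries of Steap4 did not overlap. Other members had no overlap between Ctrl_RT and MetR_RT, and how often this occurs over all genes is not given. Steap4 was 664, 645, 586 and 900.2 CPM in Ctrl_RT and 287.96, 392 and 497 in Ctrl_CE, with a change of -0.84 ± 0.15, adjusted p = 0.00281. In MetR_RT it was 381, 437 and 581 CPM (-0.59 ± 0.16, adjusted p = 0.16) and in MetR_CE 504, 563 and 739.8 (-0.29 ± 0.15, adjusted p = 0.4). The interaction was 1.15 ± 0.21, adjusted p = 0.00761, the 1 member called in that test (all genes 1.1% up and 1.2% down). Steap4 thus had a positive interaction in all 3 depots, with the libraries and titles used here. When the libraries left out of eWAT were included, its fall in Ctrl_CE and its interaction there were not called. Its interaction in iBAT was not called when the treatment tag set the groups. Serpina3k had lower values in all treated groups, 29.5, 15.7, 19.8 and 69.6 CPM in Ctrl_RT against 1.27, 2.96 and 9.48 in MetR_RT, and did not pass the test (-2.93 ± 0.83, adjusted p = 0.193). The 14 hepatocyte markers other than Cyp2e1, which fat itself expresses, summed to 6.55 to 15.3 CPM in Ctrl_RT and to 11.3 to 260.4 in MetR_CE, whereas with Cyp2e1 the sums were 3362 to 6705 and 498 to 1204. In MetR_CE replicate 5, which had the highest sum without Cyp2e1, Hpx was 9.21 CPM and Fgb 9.004, where the group's medians were 1.81 and 1.26. The part of hepatocyte RNA in the other members was not tested. Among the pathway genes, 0 of 42 of IL-6, IL-1 and NF-kB signalling and 0 of 9 metal-responsive genes were called in the 3 groups. Of 27 further positive acute phase proteins 1, 0 and 2 rose and 1, 0 and 0 fell, of 17 negative ones 1, 0 and 0 rose and 0, 0 and 1 fell, and of 15 glucocorticoid targets 0 rose and 2, 0 and 2 fell. Without Ctrl_CE replicate 4, 2 positive acute phase proteins rose and 3 fell in Ctrl_CE, and 4 glucocorticoid targets fell.

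**Figure D4:**
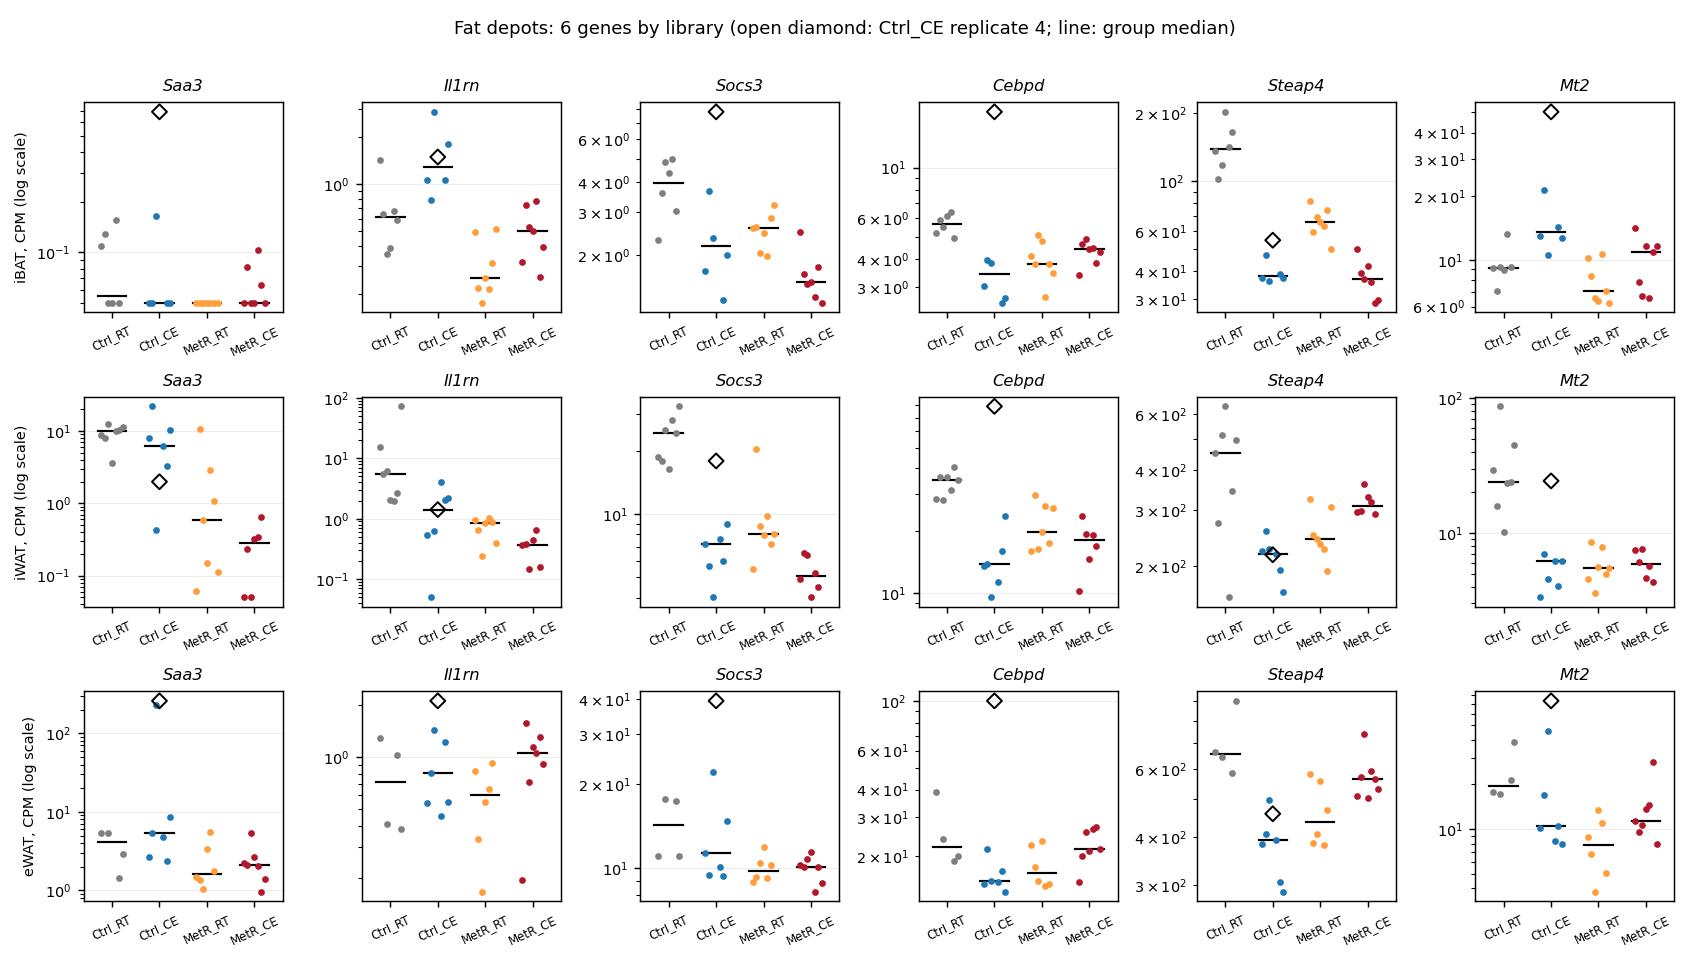
CPM (log axis) of Saa3, Il1rn, Socs3, Cebpd, Steap4 and Mt2 (columns) in each library of iBAT, iWAT and eWAT (rows), by group. Points are libraries, drawn at 0.05 where lower, lines are group medians and the open diamond is Ctrl_CE replicate 4, which is the highest Ctrl_CE library for Cebpd and Mt2 in all 3 depots, while Steap4 in Ctrl_RT lies above Ctrl_CE in iBAT and eWAT without overlap.

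Liver transcripts in fat were set beside hepatocyte markers that are no members. In Ctrl_RT the median member stood at 2.34% of its liver CPM in iBAT, 13.1% in iWAT and 15.5% in eWAT. The median hepatocyte marker stood at 0.00134%, 0.00155% and 0.00413%, with 14 of 15 under 0.1% in each depot and Cyp2e1 the exception. Il6ra, Il6st, Cebpd and Steap4 were above liver in eWAT and iWAT, and Il1rn, Socs3 and Cebpb in iWAT too. In iBAT, Orm3 and Cebpb were above liver. Members under 0.1% of liver numbered 11 of 31 in iBAT, 10 of 31 in iWAT and 11 of 33 in eWAT. In iWAT of MetR_CE replicate 5, Alb made up 96.2 of the 101 CPM summed over the 14 hepatocyte markers other than Cyp2e1, where Apoa1 was 0.219 CPM.

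Whether a change differed between tissues was tested in a joint fit of all 4, for the members with at least 1 CPM on average in both tissues. Between liver and eWAT, 29 members were compared, and the effect differed for 15 in cold (all genes 6.47%), 8 in MetR_RT (1.98%) and 19 in MetR_CE (5.83%). Between liver and iBAT it differed for 3, 6 and 9 of 18 (all genes 9.22%, 2.24% and 8.66%), and between liver and iWAT for 2, 8 and 16 of 22 (all genes 11.9%, 7.17% and 13.6%). Between iWAT and eWAT it differed for 4, 0 and 5 of 21 (all genes 4.27%, 3.64% and 10.9%). Without the Ctrl_CE mouse of replicate 4, the counts in cold were 22 for liver and eWAT, 6 for liver and iBAT, 11 for liver and iWAT and 4 for iWAT and eWAT. Of all 32143 genes, the effect of cold then differed for 2272, 3023, 3469 and 938, in that order. The depots share their mice with liver, and the fit does not use this. With the mouse as block (limma voom), the counts in Ctrl_CE, MetR_RT and MetR_CE were 8, 6 and 11 for liver and eWAT, 3, 5 and 7 for liver and iBAT, 7, 6 and 13 for liver and iWAT, and 1, 1 and 3 for iWAT and eWAT. Of all 32143 genes, 1971, 668 and 1846 were called for liver and eWAT, and 2770, 695 and 2797 for liver and iBAT. They were 3981, 2333 and 4914 for liver and iWAT, and 1770, 1675 and 4183 for iWAT and eWAT. In eWAT, Fga, Fgb, Fgg, Hpx and Itih3 reached 1 CPM on average only through the 3 libraries with the highest hepatocyte markers (Ctrl_CE replicates 5 and 6 and MetR_CE replicate 5). Without these 5 members, the counts for liver and eWAT were 10, 7 and 14 of 24, and none of the 5 was called with the mouse as block. The 24 still held Saa1 and Saa2, which were far higher in some Ctrl_CE libraries of eWAT than in Ctrl_RT. They may have passed the filter through that group. Both were called in Ctrl_CE and MetR_CE and neither with the mouse as block, so these calls are not read as results.

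Orm1, which both tissues express, differed between liver and each depot in MetR_RT. It fell in liver by 3.29 on the log2 scale and had 0.05 ± 0.17 in iBAT, 0.08 ± 0.19 in iWAT and -0.21 ± 0.44 in eWAT, which gave differences of -3.34 ± 0.46, adjusted p = 9.97e-08, -3.36 ± 0.44, adjusted p = 9.96e-09, and -3.08 ± 0.50, adjusted p = 1.2e-05. The differences of Orm3 had the same sign (-4.53 ± 0.74, -5.26 ± 0.74 and -4.63 ± 0.82), as did Lrg1 (-1.62 ± 0.40, -1.76 ± 0.38 and -1.61 ± 0.43). Il1rn went the other way between liver and iWAT, with 3.28 ± 0.75, adjusted p = 0.000701 in MetR_RT and 3.25 ± 0.72, adjusted p = 0.000256 in Ctrl_CE. Il1r1 fell in liver and rose in iBAT in the cold, a difference of -2.07 ± 0.33, adjusted p = 6.82e-07. Between the 2 white depots in the cold, Serpina3m (-3.17 ± 0.63), Saa3 (-4.60 ± 1.205), Socs3 (-1.73 ± 0.51) and Hp (-1.68 ± 0.48) differed. With the mouse as block, Socs3 alone of these 4 kept its call, and the calls of Lrg1 between liver and iBAT and of Il1rn between liver and iWAT in MetR_RT were lost as well.

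Because the tissues came from the same mice, the deviations of a gene from its group mean could be compared between liver and each depot. This was done for 8 members in 3 depots, with log2(CPM + 0.1) and 100000 permutations of the mice within their groups, two-sided, adjusted over the 24 relations. Pearson's r passed an adjusted p of 0.05 in 8 of 24 and Spearman's rho in 7. Cebpd in liver and eWAT had r = 0.930 (adjusted p = 0.00072) and rho = 0.809 (adjusted p = 0.00156) over 24 mice, and r = 0.741 without the 2 mice farthest from the median in liver. Mt2 in liver and iBAT had r = 0.828 (adjusted p = 0.0012) and rho = 0.786 (adjusted p = 0.00096) over 26 mice, with r = 0.663 without the 2 farthest. Lcn2 in liver and iWAT had r = 0.669 (adjusted p = 0.00216) and rho = 0.609 (adjusted p = 0.0167) over 27 mice, with r = 0.606 without the 2 farthest. Without Ctrl_CE replicate 4 these became r = 0.688, 0.610 and 0.615, and 3 relations passed by Pearson's r and 2 by Spearman's rho. The rho of Lcn2 was then 0.566 (adjusted p = 0.054), which did not pass. The relation of Cebpd in liver and iWAT went from r = 0.718 (adjusted p = 0.0973), which did not pass, to r = 0.0205, so that it rested on this mouse alone. Saa3 had r = 0.179 in iWAT and 0.261 in eWAT, and Serpina3n r = -0.0405 in iWAT, none of which passed.

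**Figure D5:**
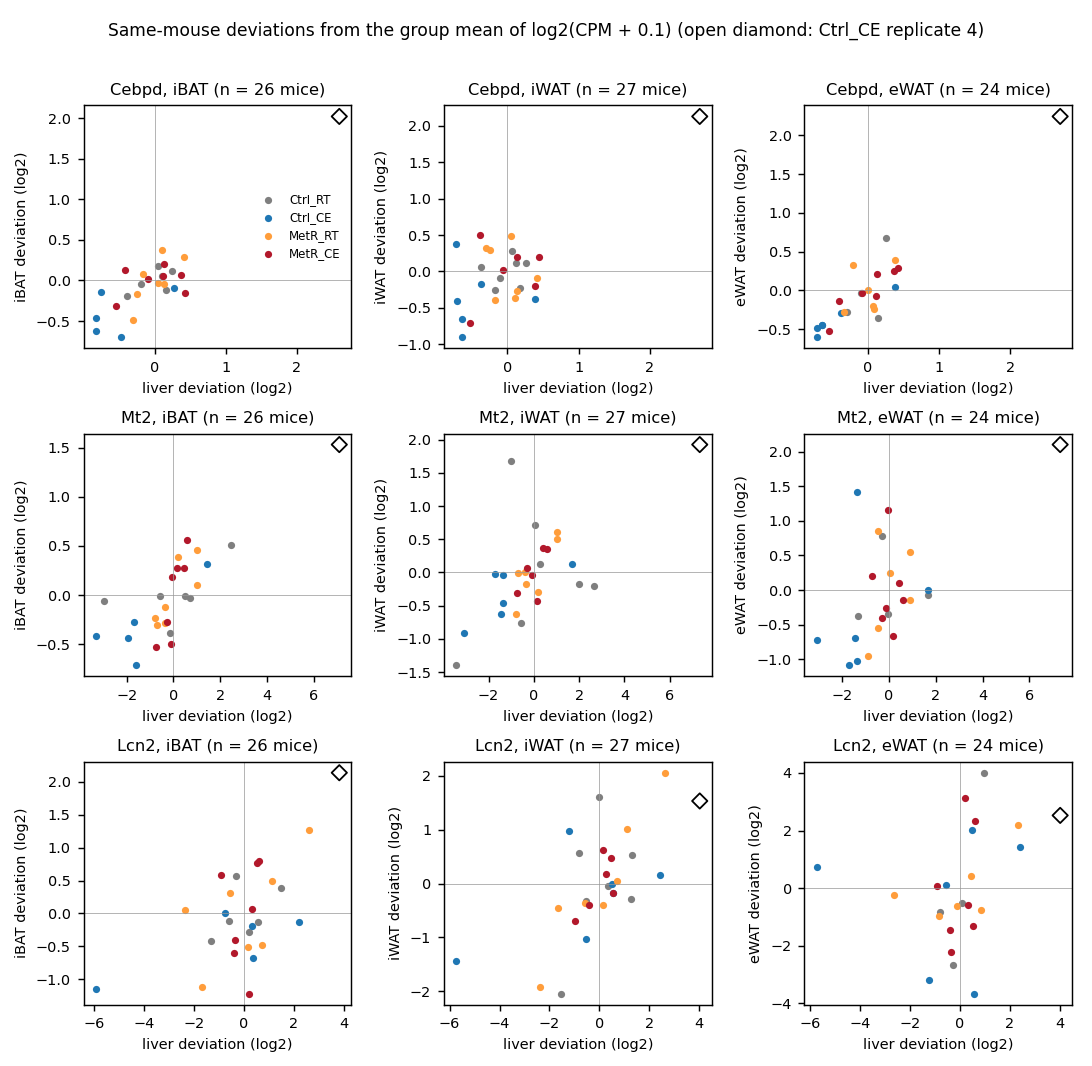
Deviation of log2(CPM + 0.1) from the group mean in liver (x axis) and in iBAT, iWAT or eWAT (y axis) of the same mouse, for Cebpd, Mt2 and Lcn2. Points are mice, coloured by group, and the open diamond is the mouse of Ctrl_CE replicate 4, which is above the group mean on both axes in every panel.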

How the data were processed

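Total RNA of 4 tissues from 28 mice was sequenced, and the authors deposited 3 tables of raw counts per gene, with 110 count columns in all and 56884 gene rows each. The study's methods name STAR 2.7.9a with featureCounts 2.0.3 and also Salmon 1.9.0 on mm10, and the names of the tables point to Salmon while their values are whole numbers. The strand setting is not given in the sources used here. Ensembl identifiers were paired with symbols through GENCODE vM21 (51948 rows named). 0 columns of no sample were used.

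Groups were taken from sample titles. The libraries left out are those whose removal brings the mean normalized counts over all remaining libraries of the tissue closest to those released with the study. Genes with at least 10 counts over a tissue were tested with the quasi-likelihood test of edgeR 4.0.16 in R 4.3.3 (TMM factors, diet, temperature and their interaction over all 4 groups), with Benjamini-Hochberg adjustment over all genes tested. The ± values beside log2 fold changes are standard errors, taken as the size of the change divided by the square root of F. A positive interaction means that cold had a more positive effect on the restricted diet. CPM values are counts divided by the library's total over the tested genes, scaled by its TMM factor, times 1000000. The factors were estimated within each tissue, also where CPM values of fat and liver are compared. In liver a total of 6987895 counts at the lowest makes values near 1 CPM rest on few reads, and counting error is only part of the spread between mice. Differences between tissues came from 1 joint edgeR fit, with limma 3.58.1 (voom, mouse as block) as the alternative. The scripts were tested on simulated data with 200 changed genes. DESeq2 1.42.0 with and without apeglm 1.24.0, other factors and filters, subsets of groups, the replicate number as block, all 110 libraries, the iBAT treatment tag and leaving out libraries were the alternatives. Those that leave out Ctrl_CE, MetR_RT or iBAT and iWAT Ctrl_RT libraries were chosen after seeing the data.

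All 33 members are named in the text, and of the pathway lists some of the genes called. Other list genes with large called changes are not named elsewhere, such as A1bg (3.79 ± 0.93) and Cdkn1a (-2.88 ± 0.61) in liver of Ctrl_CE. The members and the gene lists were chosen with earlier results of these data known. For members whose median stays under 1 CPM in all groups of a depot, no fold change is given.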

Additional observations from a re-analysis of the deposited data

Results flagged for a closer look

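A value far from the others of its group was found in 21 groups of 4 to 7 libraries, 8.61% of those tested, by Dixon's test at the 95% level, where chance gives about 5%. Of the 21, 11 were in Ctrl_CE replicate 4. In liver this library had 609 CPM of Saa4, 5743 of Itih3, 12597 of Fga, 10355 of Fgb, 9115 of Fgg, 144 of Il1r1 and 919.6 of Steap4, all high. The same mouse had 284.9 CPM of Mt1 in iBAT, and 79.2 CPM of Cebpd, 143 of Mt1 and 24.3 of Mt2 in iWAT. In liver of MetR_RT, Saa1 was high in replicate 5 (385 CPM), and Saa4 (70.8 CPM) and Steap4 (37.6 CPM) were low in replicate 3. In iBAT, Lrg1 was high in Ctrl_RT replicate 2 (33.4 CPM), Hpx was low in Ctrl_CE replicate 3 (1.73 CPM) and Il1r1 was low in Ctrl_RT replicate 4 (7.62 CPM). In iWAT, Saa3 was low in Ctrl_RT replicate 4 (3.56 CPM) and Lrg1 was low in MetR_RT replicate 6 (47.98 CPM). In eWAT, Saa2 was high in MetR_RT replicate 4 (0.184 CPM) and Steap4 was high in MetR_CE replicate 3 (739.8 CPM).

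The effect of cold differed between the diets, by the interaction term, for Serpina3k in liver (log2 difference 0.72), for Steap4 in iBAT (0.97), iWAT (1.25) and eWAT (1.15), and for Mt2 in iWAT (2.1). Between tissues, the change of the joint fit differed for 15 members in Ctrl_CE, 8 in MetR_RT and 19 in MetR_CE for liver and eWAT, and for 3, 6 and 9 for liver and iBAT. It differed for 2, 8 and 16 for liver and iWAT, and for 4 in Ctrl_CE and 5 in MetR_CE for iWAT and eWAT.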

How the results depend on the processing

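Over all alternatives no call of a member turned into a call in the opposite direction. Among the list genes, the change of Tnf in liver of Ctrl_CE switched sign without Ctrl_CE replicate 4. Of the members' calls, 1237 kept their side of the threshold and 131 lost it over the alternatives chosen beforehand, and 492 and 44 over those added after seeing the data. The falls of members in liver in MetR_RT and MetR_CE stayed within 1.5 times of the counts given in each alternative run, whereas the other counts moved as follows, and the cause was not tested. Without Ctrl_CE replicate 4 in liver, 25 members fell in Ctrl_CE (23 without replicates 1 and 4), the interaction was up for 12 (11), 9 fell between MetR_RT and MetR_CE (9), and 13 between Ctrl_CE and MetR_CE (22 without replicate 1). The fall between MetR_RT and MetR_CE held for 0 members with apeglm, 13 with only the compared groups and 2 without MetR_RT replicate 5. Of all genes, 324 of 22143, 579 of 19980 and 463 of 22002 fell there. In iBAT, the members that fell in Ctrl_CE were 5 with apeglm, 5 with filterByExpr, which tests fewer low genes, and 6 with only the compared groups. Of all genes, 1797 of 23915, 1724 of 15183 and 2078 of 21903 fell there. In MetR_RT 4, 4 and 7 members fell, with 7 for DESeq2, 5 by the treatment tag, 6 without the libraries whose tag and title differ and 6 without Ctrl_RT replicate 5. Of all genes, 313, 427, 464, 476, 346, 448 and 393 fell in these fits, in that order, of 15183 to 23915 tested. In MetR_CE 0 rose by the tag or with only the compared groups, 5 fell with filterByExpr, and the interaction was up for 0 by the tag and 4 without Ctrl_CE replicate 4. In iWAT, 1 rose in Ctrl_CE without Ctrl_CE replicate 4, and 1 in MetR_RT with apeglm. The interaction there was up for 1 with apeglm, without a filter and without Ctrl_RT replicate 7, and down for 1 with apeglm and with DESeq2. In eWAT, those that rose in Ctrl_CE were 6 with apeglm, 7 with DESeq2, 10 with all libraries, 0 with only the compared groups and 0 to 2 when 1 Ctrl_RT library was left out. Those that fell there were 0 with all libraries and 2 without Ctrl_CE replicate 4, without 3 and 4 or without 5 and 6. In MetR_RT 1 rose with apeglm, DESeq2, filterByExpr and without Ctrl_CE replicates 3 and 4, and 0 to 1 when 1 Ctrl_RT library was left out, and 2 fell with DESeq2 and without replicates 3 and 4. In MetR_CE 3 rose with all libraries and 0 to 1 when 1 Ctrl_RT library was left out, 2 fell with all libraries, with only the compared groups and without replicates 3 and 4, and 1 fell with DESeq2, without replicate 4 and without 5 and 6. The eWAT interaction was up for 2 with DESeq2, 0 with all libraries, 3 without replicate 4 and 4 without 3 and 4, and down for 1 with apeglm, 3 with DESeq2 and 1 with filterByExpr. With voom and the mouse as block, 8 and 11 members differed between liver and eWAT in Ctrl_CE and MetR_CE, 7 between liver and iWAT in Ctrl_CE, and 1, 3 and 1 between iWAT and eWAT in Ctrl_CE, MetR_CE and MetR_RT. Without Ctrl_CE replicate 4, 6 differed between liver and iBAT and 11 between liver and iWAT in Ctrl_CE, and 3 relations within mice passed. For some fits of this section, no number of all genes called is given. Their counts show how the results moved and are not read as results about the members. In liver the lowest depth, 6987895 counts, limits genes near 1 CPM.

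The replicate numbers did not pair the libraries within a tissue, since same-numbered libraries had a median correlation of deviations of -0.00624 (liver), 0.0230 (iBAT), 0.0192 (iWAT) and 0.0553 (eWAT). With the replicate number as a block, 2 members fell between MetR_RT and MetR_CE in liver, the interaction was up for 1 in iWAT, and 2, 1 and 1 fell in Ctrl_CE, MetR_RT and MetR_CE in eWAT. The counts of the other comparisons stayed within 1.5 times of those given.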
